A study of Homo sapiens with 12 samples.

Results

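The actin cytoskeleton and focal adhesion genes are 38 genes, named by symbol from knowledge of the pathway, out of 23368 distinct gene symbols in the deposited count table. They were chosen with earlier results of these data known. They encode the 2 cytoplasmic actins, proteins that turn over, crosslink and coat actin filaments, nonmuscle myosin II, the adaptors and kinases of focal adhesions, the membrane linkers ezrin, radixin and moesin, and caveolin-1. Integrins that bind collagen or laminin recruit talin, kindlin, vinculin, paxillin and focal adhesion kinase to the membrane, and these proteins couple the receptors to actin filaments that myosin II pulls on. In breast cancer cells this machinery carries spreading, invasion and the sensing of matrix stiffness. Many of its genes are targets of serum response factor (SRF), whose MRTF coactivators are held in the cytoplasm by monomeric actin.

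The study asked how breast cancer cells respond to mimics of a collagen-rich or a laminin-rich matrix. MDA-MB-231 cells, an estrogen receptor-negative basal line, and T47D cells, an estrogen receptor-positive luminal line, were encapsulated as single cells in poly(ethylene glycol) hydrogels with a cell-degradable crosslinker and with either GFOGER, a peptide that mimics collagen, or IKVAV, a peptide that mimics laminin. After 3 days the gels were digested with collagenase, 3 gels of the same composition were combined for each replicate, and poly(A) RNA was sequenced. All 4 groups therefore share the serum-containing medium, the gel backbone, the crosslinker and the digestion, and no group without a peptide is among these samples. Each line is a single established line, so a difference between lines is one between these lines and not between subtypes. MDA-MB-231 cells gave 3 GFOGER libraries and 2 IKVAV libraries with counts, and T47D cells gave 3 libraries for either peptide. The remaining MDA-MB-231 IKVAV replicate, which its label describes as omitted, was not analysed here. The sources do not say whether replicates came from separate cultures, so p-values measure the spread between these libraries, which may be partly technical.

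The reads assigned to genes numbered 14337035 to 18449108 in each library, and 3 counts, the limit that a count of 0 allows, corresponded to 0.171 to 0.203 cpm (read counts scaled to the normalized library size, per 1000000). The lines carried their markers: the mesenchymal filament gene VIM had a mean of 2332 cpm with GFOGER and 1459 cpm with IKVAV in MDA-MB-231 cells against 4.44 and 4.31 cpm in T47D cells, whereas ESR1 and CDH1 were high in T47D cells. CDH2, a further mesenchymal marker, was low in both lines, with group means of at most 1.45 cpm. The 4 MDA-MB-231 markers summed to between 3517 and 3906 cpm with GFOGER and to 2034 and 2081 cpm with IKVAV, a sum carried by VIM and AXL, while ZEB1 was lower with GFOGER (112 against 147 cpm). The part of this shift in the results was not tested. Defining leukocyte and endothelial markers (PTPRC, CD3E, CDH5, VWF) had at most 10 counts in any library, and PECAM1 and CD14 reached 237 and 187 counts in MDA-MB-231 cells. GFOGER replicate 3 of MDA-MB-231 cells and IKVAV replicate 3 of T47D cells stood apart from the other libraries of their groups, and calls that changed without either of them are given beside the result. In bulk RNA, fewer cells of a kind and less RNA per cell cannot be told apart.

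In MDA-MB-231 cells, most of the actin and adhesion genes that changed were higher with GFOGER than with IKVAV, with the largest increases in LIMA1, which crosslinks and stabilizes filaments, TPM1, a tropomyosin that coats them, and FLNC, a filamin. In the table's hg19 positions, LIMA1 lies at chr12:50569563-50677353, TPM1 at chr15:63334838-63364113 and FLNC at chr7:128470483-128499328. Of 38 genes tested, 22 rose and 2 fell at an adjusted p below 0.05 (edgeR quasi-likelihood test, Benjamini-Hochberg adjustment over all genes), whereas 21.4% of all 14090 genes tested rose and 21.4% fell. LIMA1 and TPM1 changed more than 2-fold, a size reached by 9.57% of all genes tested. The median log2 fold change was 0.30 over the 38 genes and 0.00 over all genes, while the median size of the change regardless of direction was 0.35 and 0.34. All GFOGER libraries lay above all IKVAV libraries for 24 of the genes and below them for 4, against 32.5% and 30.6% of all genes tested. Together the 38 genes took 2.52% to 2.89% of the counts with GFOGER and 2.17% and 2.21% with IKVAV. Without GFOGER replicate 3, 25 genes rose and 7 fell; the 5 further decreases were ACTG1, TAGLN2, MYH9, ZYX and PDLIM5, and the further increases were MYL12A, VCL and RDX. With the set of library totals that the deposited RPKM values imply as a term, or without 1 of the IKVAV libraries, 17 or 18 genes rose and 1, CNN2, fell.

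In T47D cells, none of these genes passed the threshold. At an adjusted p below 0.05, 0 of 37 genes tested rose and 0 fell with edgeR's quasi-likelihood test, and over all 13639 genes tested the shares were 0.022% for higher, 0.022% for lower and 0.022% for a change over 2-fold. DESeq2 called 0 of the genes as well, with no adjusted p for FLNC and MSN, and 0.257% of all genes higher and 0.315% lower. CAV1 was too low to be tested. An unadjusted p below 0.05 was reached by 3 genes (LIMA1, ACTN1 and FLNA) and by 1532 genes overall. The median log2 fold change was -0.04 over the 37 genes and 0.00 over all genes, and the largest sizes were -0.33 for FLNC and 0.18 for ACTN1. All GFOGER libraries lay above all IKVAV libraries for 2 genes (CFL1 and ACTN1) and below them for 3 (TPM1, CNN3 and LIMA1), against 8.31% and 7.72% of all genes tested. The 38 genes took 1.42% to 1.55% of the counts with GFOGER and 1.41% to 1.61% with IKVAV. Without IKVAV replicate 3, 1 gene, TAGLN2, was called higher (log2 fold change 0.28, edgeR adjusted p = 0.0276), when 419 genes in all were called higher and 633 lower.

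**Figure D1:**
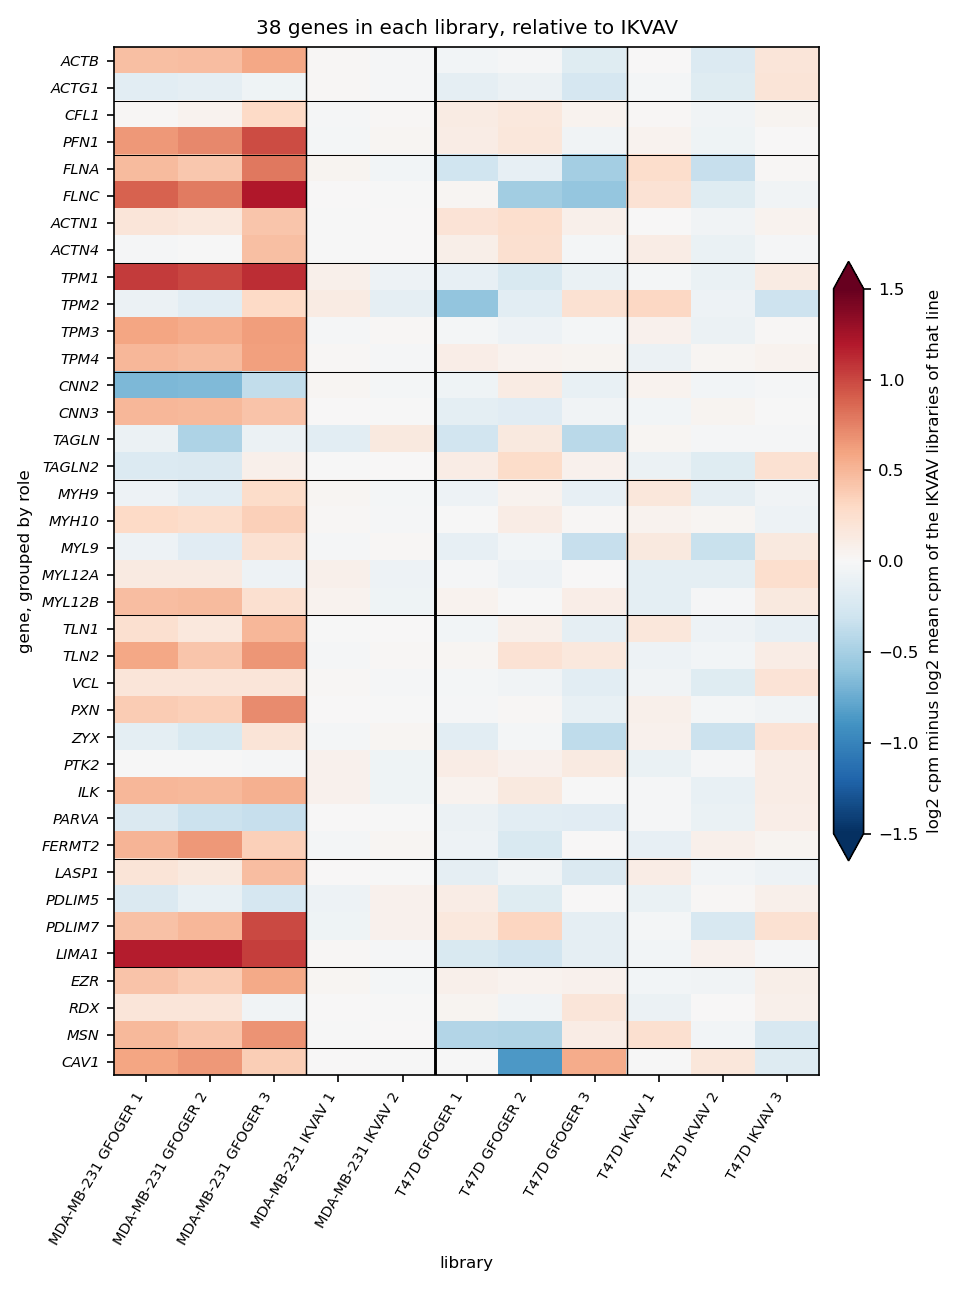
Heat map of the 38 genes (rows, grouped by role) in the 11 libraries (columns), colored by log2 cpm minus the log2 mean cpm of the IKVAV libraries of the same cell line. The 3 MDA-MB-231 GFOGER columns are mostly red, with LIMA1, TPM1 and FLNC darkest, and GFOGER replicate 3 is the highest of the 3 for 26 of the 38 genes. The T47D columns show smaller differences of either sign, and FLNC, MSN and CAV1 there rest on at most 48 counts.

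The response to the peptides differed between the lines for 16 of the 38 genes. In the interaction test, 15 genes responded more positively in MDA-MB-231 than in T47D cells and 1 (CNN2) more negatively, whereas 10.9% and 10.2% of all 15310 genes tested did so. The difference exceeded 2-fold for LIMA1, FLNC and TPM1, as it did for 6.43% of all genes. The median interaction was 0.34 on the log2 scale over the 38 genes and 0.03 over all genes. For the other 22 genes, no difference between the lines was called, which does not show that the responses were alike. Without T47D IKVAV replicate 3, TLN1 was also called more positive in MDA-MB-231 cells (0.40, edgeR adjusted p = 0.0454) and TAGLN2 more negative (-0.39, edgeR adjusted p = 0.0329), and without MDA-MB-231 GFOGER replicate 3, MYL12B was also called more positive (0.42, edgeR adjusted p = 0.0139). The number called more positive was 11 without MDA-MB-231 IKVAV replicate 2 and 12 without T47D GFOGER replicate 1. LASP1 lost its interaction call in 7 of 18 alternatives, ILK in 3, EZR in 2 and PXN in 1.

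**Figure D2:**
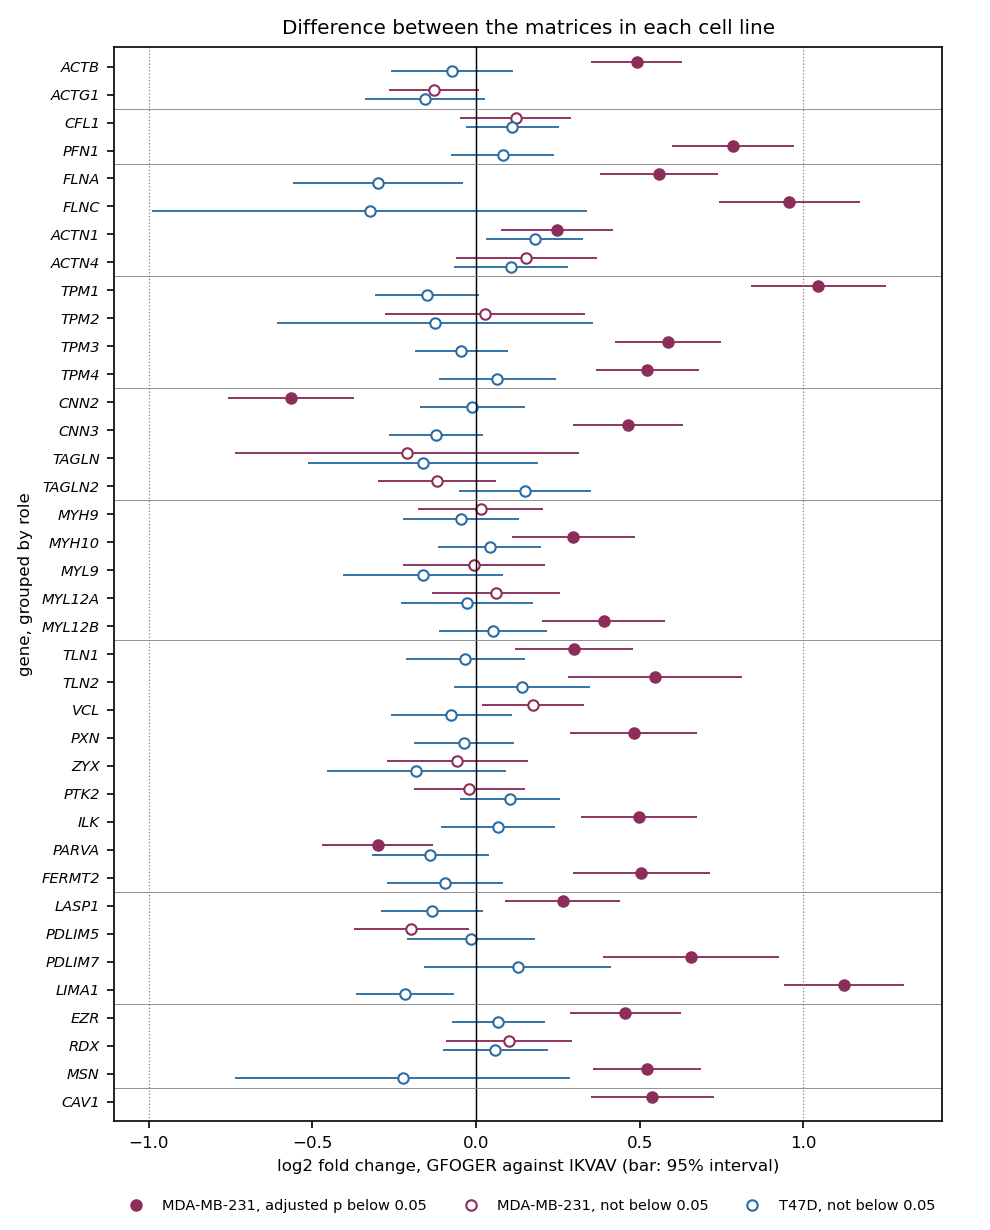
Log2 fold change of each gene with GFOGER against IKVAV in MDA-MB-231 cells (purple) and T47D cells (blue), with 95% intervals as bars, filled circles for an adjusted p below 0.05 and dotted lines at a 2-fold change. The 22 increases of MDA-MB-231 cells reach 1.12 for LIMA1, the 2 decreases are CNN2 and PARVA, and no T47D point is filled.

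Of the cytoplasmic actins, beta-actin rose with GFOGER in MDA-MB-231 cells and gamma-actin was not called. ACTB was at 3925, 3941 and 4273 cpm with GFOGER and at 2901 and 2828 cpm with IKVAV. The groups did not overlap, and the increase was 0.49 ± 0.07 on the log2 scale (standard error, SE; edgeR adjusted p = 3.85e-05). ACTG1 was at 2083, 2104 and 2205 cpm with GFOGER and at 2341 and 2289 cpm with IKVAV, all GFOGER libraries below the IKVAV ones, with a log2 fold change of -0.13 ± 0.07 (edgeR adjusted p = 0.156). The share of ACTB in the summed level of both actins per kilobase of gene length was 68.8% ± 0.389 (SD, n = 3) with GFOGER and 59.0% ± 0.043 (SD, n = 2) with IKVAV. In T47D cells it was 73.7% and 72.6%. There ACTB was at 4361, 4437 and 3953 cpm with GFOGER and at 4492, 3871 and 5061 cpm with IKVAV, and ACTG1 was at 1791, 1847 and 1653 against 1925, 1730 and 2237 cpm, so that the matrices overlapped for both actins. The 95% interval of the T47D log2 fold change was -0.26 to 0.11 for ACTB and -0.34 to 0.03 for ACTG1. The interaction was called for ACTB (0.57 ± 0.13, edgeR adjusted p = 0.00372) and not for ACTG1 (0.04 ± 0.12, edgeR adjusted p = 0.882). Both coding sequences are nearly identical and have many processed pseudogenes, so reads may have been divided unequally between them.

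Profilin and cofilin turn filaments over, profilin by delivering monomers to growing ends and cofilin by severing. PFN1 was at 847, 893 and 1068 cpm with GFOGER and at 529 and 552 cpm with IKVAV in MDA-MB-231 cells. All GFOGER libraries were higher, by 0.78 ± 0.10 on the log2 scale (1.72-fold, edgeR adjusted p = 7.09e-06). In T47D cells PFN1 ranged from 331 to 388 cpm with GFOGER and from 330 to 358 cpm with IKVAV, and the interaction was 0.71 ± 0.13 (edgeR adjusted p = 8.07e-04). CFL1 was not called in either line, at log2 fold changes of 0.12 (MDA-MB-231) and 0.11 (T47D), although its GFOGER libraries lay above its IKVAV libraries in both.

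Of the filament crosslinkers, 3 of 4 rose in MDA-MB-231 cells, against 21.4% of all genes tested. Filamins join filaments into orthogonal networks and bind integrin tails, and FLNC, the filamin best known from muscle, was at 275, 255 and 342 cpm with GFOGER and at 150 and 148 cpm with IKVAV. Its GFOGER libraries were all well above the IKVAV pair (1.94-fold, log2 fold change 0.96 ± 0.11, edgeR adjusted p = 4.22e-06). In T47D cells FLNC was between 0.740 and 1.29 cpm, at most 19 counts in a library, and the T47D interval of -0.99 to 0.34 was correspondingly wide. FLNA, the abundant filamin, was at 3795, 3614 and 4693 cpm with GFOGER and at 2793 and 2649 cpm with IKVAV in MDA-MB-231 cells, an increase of 0.56 ± 0.09. Its T47D libraries were at 379, 429 and 329 cpm with GFOGER and at 559, 368 and 472 cpm with IKVAV, and overlapped, with a log2 fold change of -0.30 ± 0.13 (edgeR adjusted p = 0.419) that was -0.15 without IKVAV replicate 1. The interaction for FLNA was 0.87 ± 0.19 (edgeR adjusted p = 0.003). FLNC made up 6.28% of the summed level of FLNA and FLNC per length with GFOGER and 4.85% with IKVAV in MDA-MB-231 cells, against 0.219% and 0.224% in T47D cells.

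Alpha-actinins bundle antiparallel filaments at stress fibers and adhesions. ACTN1 was at 796, 782 and 938 cpm with GFOGER and at 697 and 708 cpm with IKVAV in MDA-MB-231 cells, and at 424, 437 and 389 against 369, 354 and 381 cpm in T47D cells. All GFOGER libraries were above all IKVAV libraries in both lines. The increase was called in MDA-MB-231 cells (0.25 ± 0.09, edgeR adjusted p = 0.0305), a call lost in 4 of 13 alternatives, and not in T47D cells (0.18 ± 0.08, edgeR adjusted p = 0.402), and the interaction was 0.08 ± 0.12 with a 95% interval from -0.16 to 0.31. ACTN4 differed by 0.15 and 0.11 in the respective lines and was not called.

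Tropomyosins wrap around filaments and set which other proteins may bind them. With GFOGER 3 of 4 rose in MDA-MB-231 cells, against 21.4% of all genes tested. TPM1 was at 102, 98.8 and 107 cpm with GFOGER and at 51.9 and 46.8 cpm with IKVAV. The separation was wide against a spread of a few cpm within each group (2.06-fold, edgeR adjusted p = 9.27e-07). TPM3 was at 430, 421 and 441 cpm against 282 and 289 cpm, an increase of 0.59 ± 0.08, and TPM4 rose by 0.52 ± 0.08. In T47D cells TPM1 was at 193, 179 and 195 cpm with GFOGER and at 206, 196 and 228 cpm with IKVAV, so that GFOGER libraries were lower without being called (log2 fold change -0.15 ± 0.08, edgeR adjusted p = 0.509). TPM3 in T47D cells ranged from 544 to 560 cpm with GFOGER and from 539 to 600 cpm with IKVAV. The interaction was called for TPM1 (1.20 ± 0.13), TPM3 (0.64 ± 0.10) and TPM4 (0.47 ± 0.11). TPM2 was not called in either matrix comparison.

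The lines used different tropomyosins. TPM4 supplied 77.9% ± 0.111 (SD, n = 3) of the summed tropomyosin level per length in MDA-MB-231 cells with GFOGER and 79.1% with IKVAV, but 11.1% and 9.97% in T47D cells, where TPM1 supplied 46.3% and 48.4% and TPM3 40.7% and 39.6%. TPM1 made up 8.28% ± 0.156 (SD, n = 3) of the family in GFOGER libraries and 5.85% ± 0.289 (SD, n = 2) in IKVAV libraries of MDA-MB-231 cells. The summed level was 370 ± 20.4 cpm per kb with GFOGER and 252 ± 6.06 cpm per kb with IKVAV in MDA-MB-231 cells, and 122 ± 3.51 and 129 ± 6.58 cpm per kb in T47D cells. The table gives 1 length per gene, which for TPM3 is 11179 bases, so levels per length depend on the transcript forms it covers.

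**Figure D3:**
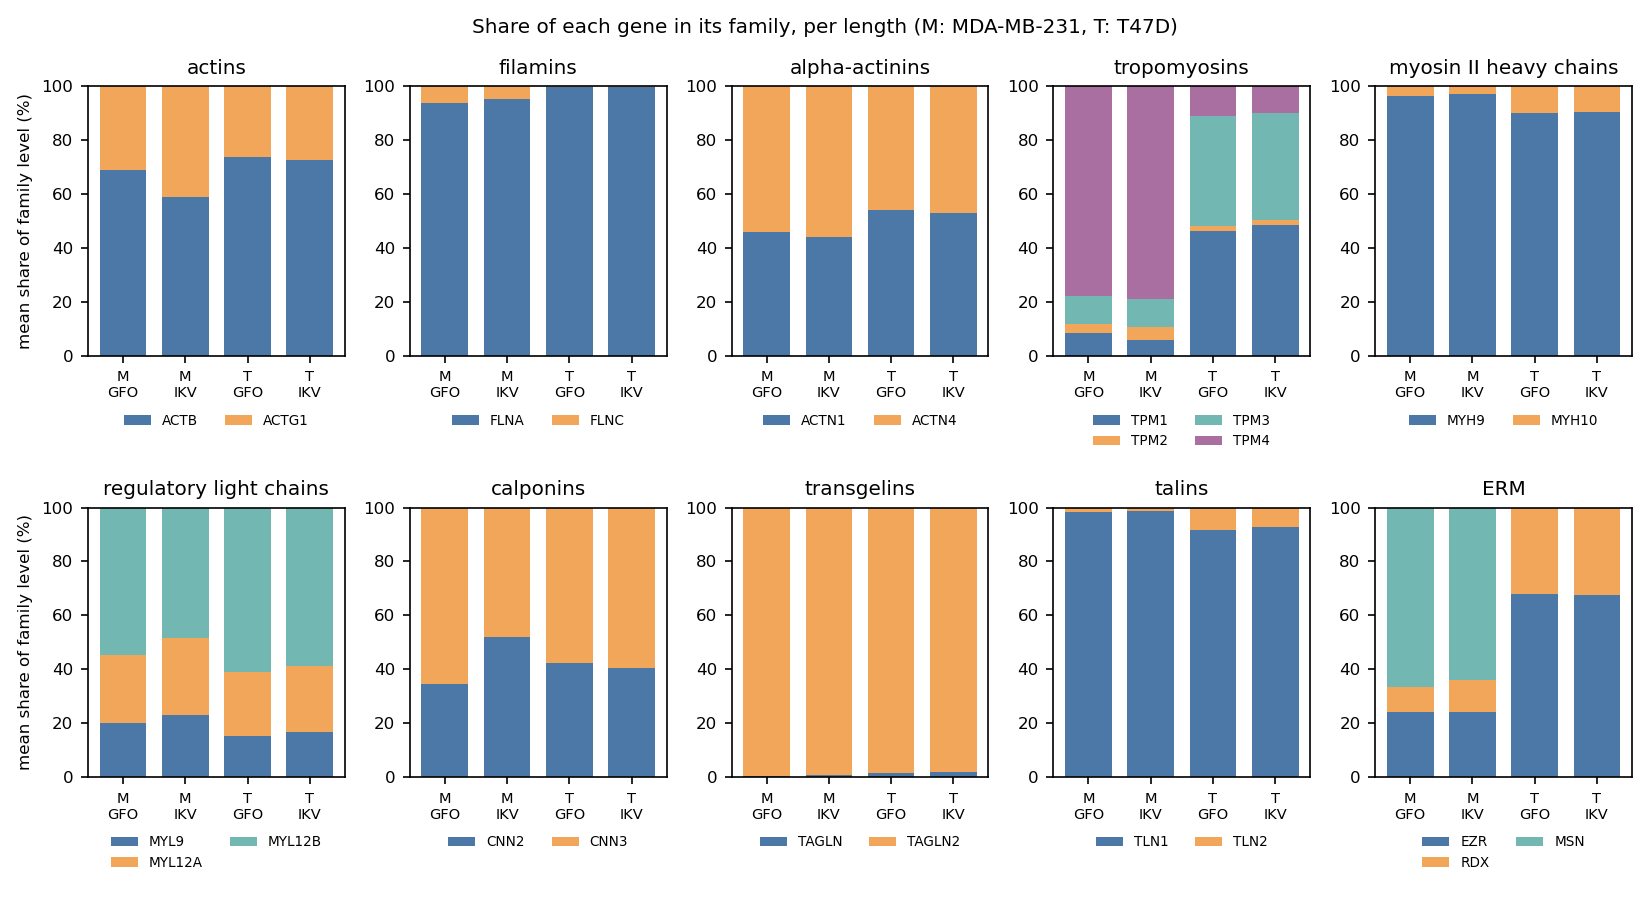
Mean share of each gene in the summed level of its family per kilobase of gene length, in 10 families and the 4 groups (M, MDA-MB-231; T, T47D; GFO, GFOGER; IKV, IKVAV). Families hold only genes of the set, so the heavy chain gene MYH14 is left out. TPM4 fills most of the tropomyosin bar and MSN most of the ERM bar in MDA-MB-231 but not in T47D cells, and the ACTB and CNN3 shares of MDA-MB-231 cells are larger with GFOGER than with IKVAV.

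The calponins moved in opposite directions in MDA-MB-231 cells. Calponins bind actin filaments and slow myosin. CNN2 was at 172, 174 and 213 cpm with GFOGER and at 279 and 270 cpm with IKVAV, and was the largest decrease of the 38 genes (1.48-fold lower, log2 fold change -0.57 ± 0.10, edgeR adjusted p = 2.28e-04). CNN3 rose by 0.46 ± 0.09. Their summed level per length was 218 ± 5.54 and 214 ± 3.40 cpm per kb with GFOGER and IKVAV, with a CNN2 share of 34.7% and 52.1%. In T47D cells CNN2 was at 242, 276 and 235 cpm with GFOGER and at 263, 247 and 250 cpm with IKVAV, which overlap, and its share was 42.3% and 40.5%. The interaction test called CNN2 and CNN3 in opposite directions, CNN2 at -0.55 ± 0.13 and CNN3 at 0.59 ± 0.11. The transgelins, small calponin relatives, were not called in either line: TAGLN was low everywhere, between 2.41 and 7.80 cpm, and TAGLN2 had log2 fold changes of -0.12 in MDA-MB-231 and 0.15 in T47D cells. The TAGLN gene overlaps an annotated gene with up to 76 counts, beside a lowest TAGLN count of 39.

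Of the nonmuscle myosin II genes, which encode the motor of stress fibers, 2 of 5 rose in MDA-MB-231 cells and the other 3 were not called. Of all genes tested 21.4% rose, and so small a count does not set the role apart. Those that rose were the heavy chain MYH10 (0.30 ± 0.10, edgeR adjusted p = 0.0197) and the regulatory light chain MYL12B (0.39 ± 0.10, edgeR adjusted p = 0.00372). The MYH10 call was lost in 4 of 13 alternatives and the MYL12B call in 1. MYH9, the heavy chain that made up at least 90.0% of the summed heavy chain level per length in the mean of every group, had a log2 fold change of 0.01 ± 0.10. MYL9 and MYL12A were at -0.01 and 0.06. In the interaction test, 0 of the 5 were called with edgeR's quasi-likelihood test and 0 with DESeq2, and the unadjusted p was below 0.05 for 2. MYL12B was called there in 3 of 18 alternatives: without MDA-MB-231 GFOGER replicate 3, without T47D IKVAV replicate 1 and with the RPKM term. MYL12A and MYL12B are adjacent genes with nearly identical coding sequences, so the division of reads between them is uncertain.

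Of the 9 focal adhesion adaptors and kinases, 5 rose and 1 fell in MDA-MB-231 cells, against 21.4% and 21.4% of all genes tested. Talins bind integrin tails and open them: TLN1 rose by 0.30 ± 0.09 (edgeR adjusted p = 0.0149) and TLN2 by 0.55 ± 0.14 (edgeR adjusted p = 0.00396). The TLN1 call was lost in 3 of 13 alternatives and the TLN2 call in 1. Kindlin-2, the talin partner encoded by FERMT2, rose by 0.51 ± 0.11, integrin-linked kinase (ILK) by 0.50 ± 0.09 and paxillin (PXN), a scaffold phosphorylated by focal adhesion kinase, by 0.48 ± 0.10. Parvin, which binds ILK, went the other way: PARVA was at 245, 229 and 224 cpm with GFOGER and at 287 and 283 cpm with IKVAV. All 3 GFOGER libraries were lower (1.23-fold, log2 fold change -0.30 ± 0.09, edgeR adjusted p = 0.00985), and the call was lost when either IKVAV library was left out (edgeR adjusted p = 0.114 and 0.100). In T47D cells PARVA was at 46.5, 44.5 and 44.0 cpm with GFOGER and at 49.1, 46.4 and 53.2 cpm with IKVAV.

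Vinculin, which reinforces the talin link under load, had VCL levels of 520, 520 and 517 cpm with GFOGER and 463 and 451 cpm with IKVAV in MDA-MB-231 cells. The libraries did not overlap, but the difference of 0.18 ± 0.08 was not called (edgeR adjusted p = 0.0856). It was called without GFOGER replicate 3 (edgeR adjusted p = 9.34e-05) and with the replicate number as a block (edgeR adjusted p = 1.36e-05). In T47D cells VCL was at 239, 234 and 217 cpm with GFOGER and at 234, 214 and 279 cpm with IKVAV. Zyxin (ZYX, -0.06) and focal adhesion kinase (PTK2, -0.02) were not called in MDA-MB-231 cells. The interaction was called for FERMT2 (0.61 ± 0.14), PXN (0.53 ± 0.13) and ILK (0.44 ± 0.12) and not for the other 6. TLN1, ILK and ZYX overlap annotated genes that had up to 1268, 896 and 332 counts, and the strand setting of the counting was not given in the sources used here.

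Among the actin binders with LIM domains, 3 of 4 rose in MDA-MB-231 cells, against 21.4% of all genes tested. LIMA1 was at 278, 280 and 253 cpm with GFOGER and at 125 and 122 cpm with IKVAV, the largest change of the 38 genes (2.18-fold, log2 fold change 1.12 ± 0.09, edgeR adjusted p = 1.03e-07). In T47D cells its order was the opposite: 153, 146 and 162 cpm with GFOGER and 173, 187 and 176 cpm with IKVAV. These libraries did not overlap either, but the difference of -0.22 ± 0.08 was not called (edgeR adjusted p = 0.33, 95% interval -0.37 to -0.07). The interaction for LIMA1 was 1.35 ± 0.12 (edgeR adjusted p = 1.45e-07).

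PDLIM7, a PDZ and LIM domain adaptor, was at 109, 113 and 159 cpm with GFOGER and at 76.4 and 83.4 cpm with IKVAV in MDA-MB-231 cells. Its increase of 0.66 ± 0.14 came with the widest spread of the 38 genes in that group, a coefficient of variation of 22.0%, to which GFOGER replicate 3 was the high value. In T47D cells PDLIM7 ranged from 18.7 to 25.5 cpm with GFOGER and from 17.3 to 24.0 cpm with IKVAV, and the interaction was not called (0.54 ± 0.22, edgeR adjusted p = 0.088). LASP1 rose by 0.26 ± 0.09 in MDA-MB-231 cells, a call lost in 3 of 13 alternatives, and PDLIM5 was not called (-0.20 ± 0.09).

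Ezrin, radixin and moesin link filaments to the plasma membrane. EZR rose by 0.46 ± 0.09 and MSN by 0.52 ± 0.08 in MDA-MB-231 cells, and RDX was not called (0.10 ± 0.10). The interaction was called for EZR (0.40 ± 0.11) and for MSN (0.75 ± 0.22), the latter a call lost in 6 of 18 alternatives. MSN supplied 66.6% of the summed level of the family per length in MDA-MB-231 cells with GFOGER and 63.9% with IKVAV, but 0.298% and 0.369% in T47D cells, where EZR supplied 67.9% and 67.6%. CAV1, the scaffold of caveolae, was at 510, 529 and 436 cpm with GFOGER and at 340 and 335 cpm with IKVAV in MDA-MB-231 cells (0.54 ± 0.10, edgeR adjusted p = 2.92e-04).

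**Figure D4:**
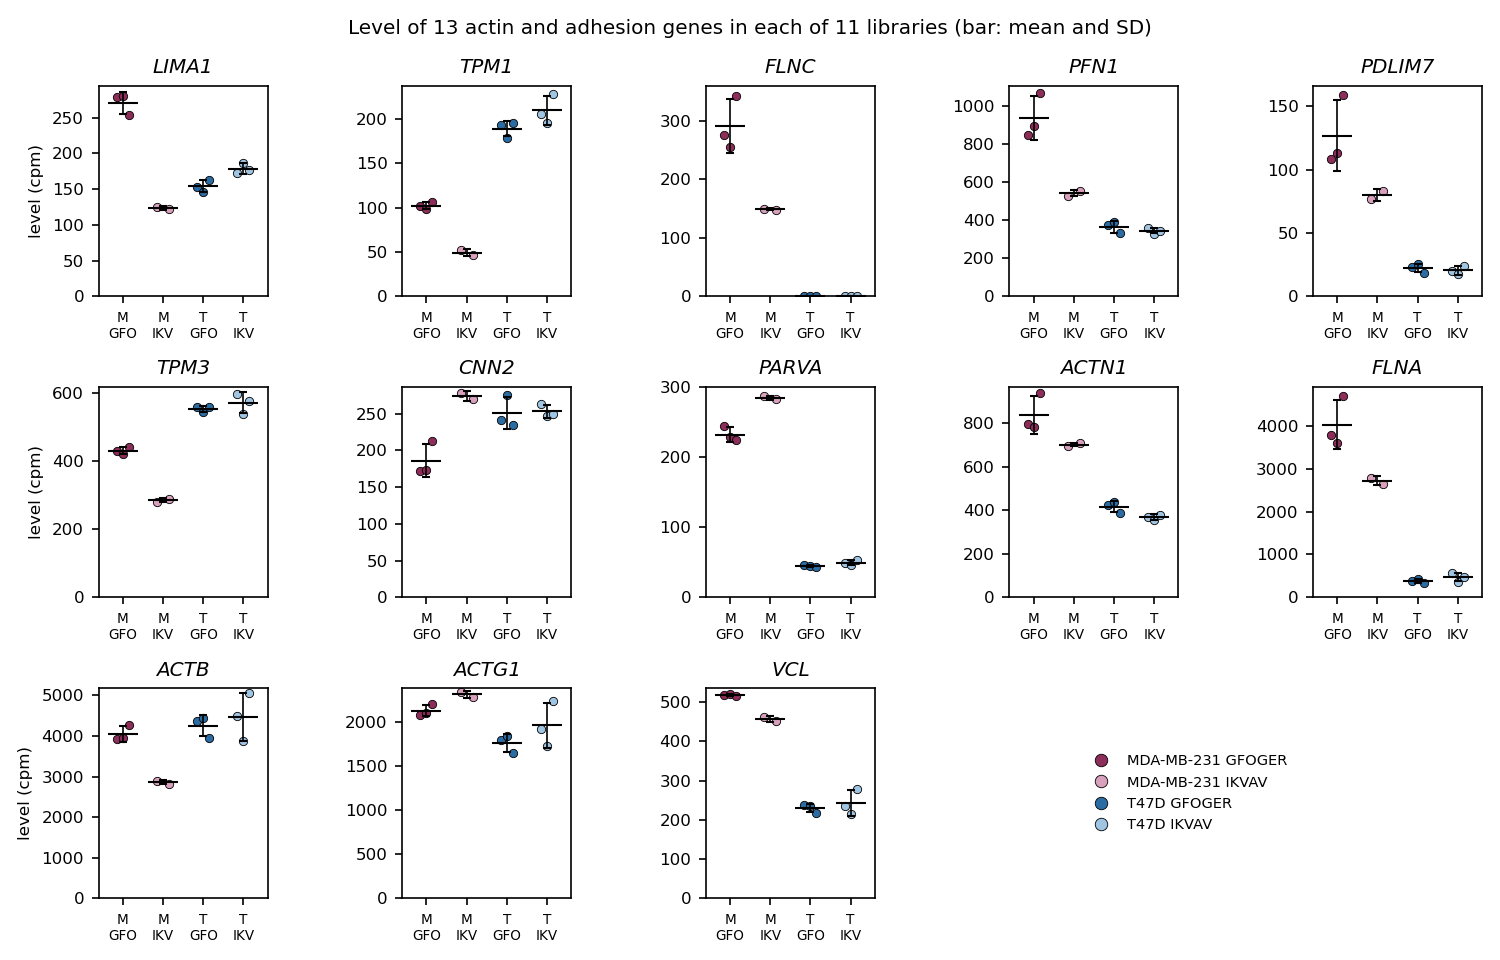
Level in cpm of 13 of the genes in each of the 11 libraries (points), with the group mean and SD as bars and axes that start at 0 (M, MDA-MB-231; T, T47D; GFO, GFOGER; IKV, IKVAV). The MDA-MB-231 groups do not overlap for any of the 13 genes, with GFOGER lower for CNN2, PARVA and ACTG1 and higher for the other 10. The T47D groups do not overlap for LIMA1, TPM1 and ACTN1. Most of the 13 were chosen for large called changes in MDA-MB-231 cells or a small p in T47D cells, so the lack of overlap adds nothing to the tests. Of all genes tested, 32.5% lay above and 30.6% below in MDA-MB-231 cells, and 8.31% and 7.72% in T47D cells.

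Most of the 38 genes were expressed at a higher level in MDA-MB-231 than in T47D cells, and CAV1, MSN and FLNC were nearly absent from T47D cells. The median size of the log2 difference was 0.99 between the lines, beside 0.90 over all genes. Averaged over both peptides, 26 of the 38 genes were higher and 10 lower in MDA-MB-231 than in T47D cells by edgeR's quasi-likelihood test, against 42% and 42.5% of all genes tested, and 19 differed more than 2-fold, against 46.3%. The median log2 difference was 0.87 over the 38 genes and -0.01 over all genes. CAV1 was at 436 to 529 cpm with GFOGER and 335 to 340 cpm with IKVAV in MDA-MB-231 cells and between 0.298 and 0.797 cpm, at most 14 counts, in T47D cells, a fitted difference of 737-fold. MSN was at 918 cpm or more in each MDA-MB-231 library and at 2.98 cpm or less in each T47D library (476-fold). FLNC differed by 209-fold, TPM4 by 18.2-fold and FLNA by 7.88-fold. No library of the lines overlapped for these 5 genes.

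In the other direction the differences were smaller. TPM1 was 2.80-fold lower in MDA-MB-231 than in T47D cells, TAGLN 2.13-fold, TPM3 1.61-fold, TLN2 1.38-fold and ACTB 1.28-fold. For TLN2 and ACTB the libraries of the lines overlapped, since TLN2 reached 26.2 cpm and ACTB 4273 cpm in MDA-MB-231 cells with GFOGER and the lowest T47D values were 25.2 and 3871 cpm. MYH10 and MYL12B were not called between the lines. MYL12B was called higher in MDA-MB-231 cells without MDA-MB-231 GFOGER replicate 3 (0.17, edgeR adjusted p = 0.0114), without T47D IKVAV replicate 3 (0.16, edgeR adjusted p = 0.0144) and in 2 other alternatives. MYH10 was called lower with upper-quartile normalization (-0.17, edgeR adjusted p = 0.0118) and with library size alone (-0.16, edgeR adjusted p = 0.0151). The calls for CNN2 (lower) and LIMA1 (higher) were lost in 10 of 18 alternatives each. Of the adhesion adaptors and kinases, 8 of 9 were higher in MDA-MB-231 cells, ZYX by 7.42-fold and PARVA by 5.45-fold, with TLN2 the exception. All 4 crosslinkers and all 4 LIM domain genes were higher in MDA-MB-231 cells, as were 42% of all genes tested.

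Per kilobase of gene length, ACTB was the most abundant of the 38 genes in both lines, at a mean of 1907 cpm per kb in MDA-MB-231 and 2408 cpm per kb in T47D cells. The next 3 places were held by PFN1, ACTG1 and CFL1 in MDA-MB-231 cells with GFOGER (1160, 1012 and 840 cpm per kb) and by ACTG1, CFL1 and PFN1 with IKVAV (1100, 768 and 670 cpm per kb). In T47D cells they were held by CFL1, ACTG1 and PFN1 with either peptide (1025, 838 and 451 cpm per kb with GFOGER, 950, 933 and 427 cpm per kb with IKVAV). Averaged over both peptides, FLNA followed in the fifth place in MDA-MB-231 cells, at 397 cpm per kb, and held place 19 in T47D cells, at 49.7 cpm per kb. MSN went from place 8 to place 36, TPM4 from 12 to 28 and CAV1 from 17 to 37, whereas TPM1 went from place 34 in MDA-MB-231 cells to place 16 in T47D cells.

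**Figure D5:**
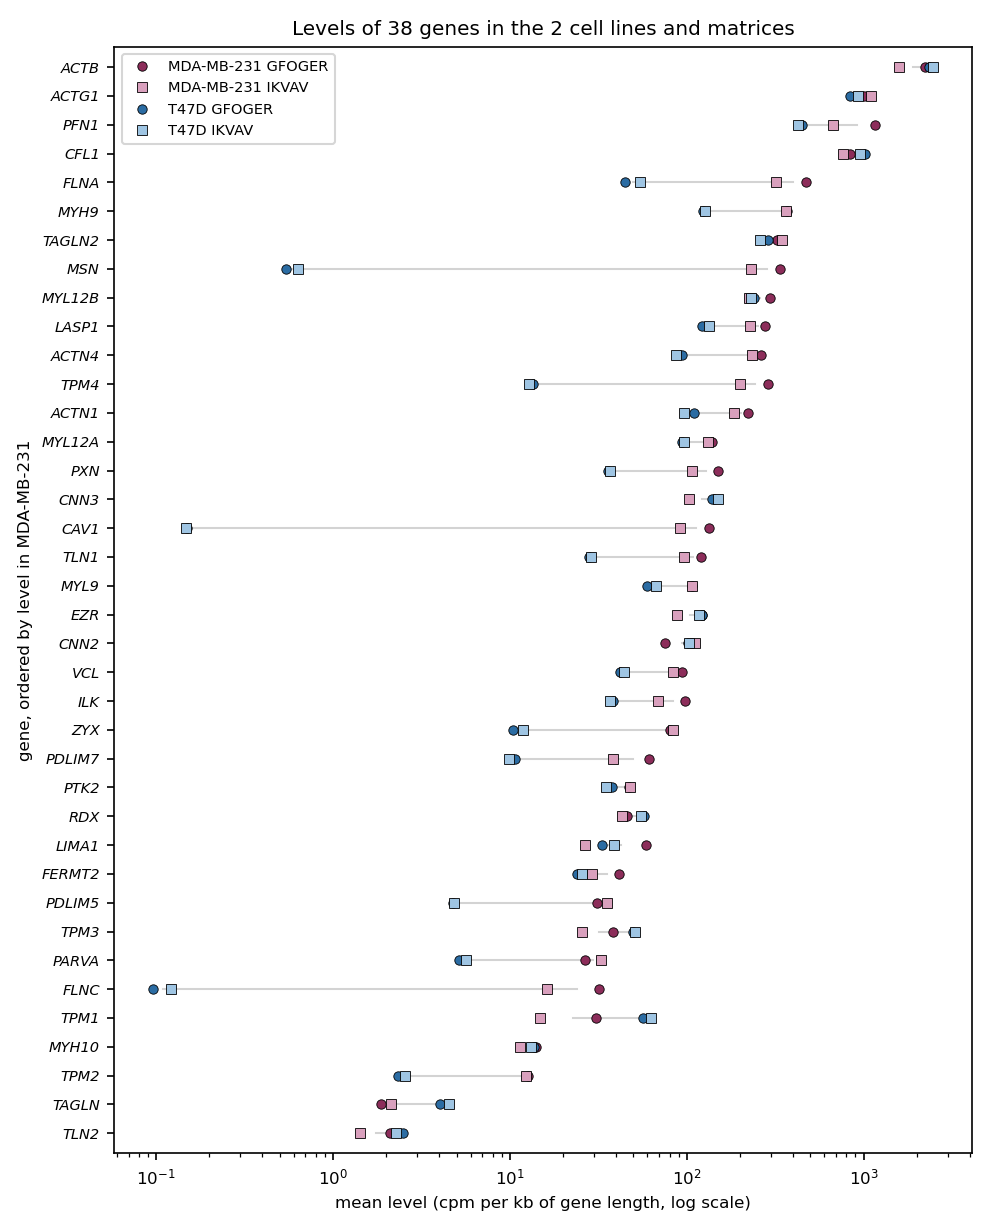
Mean level of each gene in cpm per kilobase of gene length (logarithmic axis) in the 4 groups, ordered by level in MDA-MB-231 cells, with a grey line that joins the means of the lines. ACTB is at the top in both lines, and the longest lines belong to CAV1, MSN and FLNC, which lie below 1 cpm per kb in T47D cells.

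Of 72 further actin regulators and adhesion genes, 67 were tested in MDA-MB-231 cells, where 26 rose (38.8%) and 13 fell (19.4%), against 21.4% and 21.4% of all genes. In T47D cells 0 of 64 rose and 0 fell with edgeR's quasi-likelihood test, as with DESeq2 (0 and 0), and 4 had an unadjusted p below 0.05. Without T47D IKVAV replicate 3, 2 of them were called higher there, and without MDA-MB-231 GFOGER replicate 3, 31 rose and 20 fell in MDA-MB-231 cells. The median log2 fold change in MDA-MB-231 cells was 0.14. LCP1, the bundling protein L-plastin, rose most, with 36.4 ± 4.52 cpm (SD, n = 3) in GFOGER matrices against 7.95 ± 0.405 cpm (SD, n = 2) in IKVAV matrices, followed by FERMT1, which encodes kindlin-1 (log2 fold change 1.24 ± 0.15). TNS4, a tensin, fell most, by 1.16 on the log2 scale, and EVL, a filament elongation factor of the Ena/VASP family, fell by 0.77. All 4 of these genes also passed the interaction test.

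By function, 6 of 14 genes of the Arp2/3 complex and its activators, which nucleate branched filaments, rose (42.9%) and 1 (WASL) fell (7.14%) in MDA-MB-231 cells. Of 17 capping, severing and bundling genes tested, 9 rose and 5 fell (52.9% and 29.4%), and of 14 further adhesion adaptors tested, 4 rose and 3 fell (28.6% and 21.4%, near the shares over all genes, 21.4% and 21.4%). SRF itself was not called (0.14), and the genes of its MRTF coactivators fell, MKL1 by 0.46 and MKL2 by 0.75 on the log2 scale.

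The promoters of these genes were read for the CArG box to which SRF binds, CC followed by 6 bases that are each A or T and then GG, and for the TEAD motif CATTCC or its reverse complement GGAATG, which the partners of YAP and TAZ bind. The window was the 250 bases before each RefSeq start (GRCh38.p14), and 33 of the 38 genes had an entry; ACTB, TAGLN, MYL9, PTK2 and PARVA had none. A gene was counted when any of its starts held the motif. A CArG box was found in 5 of the 33 genes (15.2%), against 1.44% of 27305 genes in the table. Counted per start, 5 of 53 starts held it, against 1.16% of 35116 starts. The 5 genes were ACTG1, which was not called in MDA-MB-231 cells, CNN2, which fell, and ACTN1, TPM4 and FLNA, which rose. They are shown with 10 bases on either side and the box in capitals, 5′ to 3′ on the strand of the gene, because the genes that hold the box did not share a direction. ACTN1 is at chr14:68977718-68977747 (minus strand), ACTG1 at chr17:81512874-81512903 (minus), CNN2 at chr19:1026509-1026538 (plus), TPM4 at chr19:16067355-16067384 (plus) and FLNA at chrX:154374709-154374738 (minus).
ACTN1: acgctcatgtCCAAAAATGGtaacattcat
ACTG1: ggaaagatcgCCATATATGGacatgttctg
CNN2: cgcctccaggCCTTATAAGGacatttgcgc
TPM4: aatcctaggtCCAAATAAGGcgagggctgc
FLNA: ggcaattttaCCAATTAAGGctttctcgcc
The boxes began 171, 94, 89, 173 and 94 bases before the start, in that order.

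The TEAD motif was found in 9 of the 33 genes (27.3%), against 14.3% of all genes in the table. Counted per start, 9 of 53 starts held it, against 11.9% of 35116 starts. The 9 genes were ACTN1, CNN3, FLNC, LIMA1, MYH10, PFN1 and PXN, which rose in MDA-MB-231 cells, and VCL and MYH9, which were not called. Of all 38 genes 22 rose there, and whether genes with the motif rose more often was not tested. The windows of LIMA1, FLNC and PFN1, which were among the largest increases, are shown in the same way with the motif in capitals. LIMA1 is at chr12:50202174-50202199 (minus strand), FLNC at chr7:128830293-128830318 (plus) and PFN1 at chr17:4948615-4948640 (minus).
LIMA1: gatggggtcaGGAATGagttgttggg
FLNC: ggccgggcggCATTCCtgggaggccg
PFN1: ggggagggagGGAATGgggagtaggc
TPM1, the other gene changed more than 2-fold, held neither motif in its window. ACTN1 held both. A match is a string of letters and was not tested for binding.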

How the data were processed

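RNA of MDA-MB-231 and T47D cells from GFOGER or IKVAV matrices was sequenced as poly(A) libraries. Per the labels and the methods, the authors checked and trimmed reads (FastQC, Trim Galore 0.4.4), aligned them to hg19 with TopHat2 2.1.0 and counted them on genes with HTSeq 0.6.1p1; the annotation and strand setting are not given in the sources used here. The deposited table holds raw read counts per gene, which were tested, and RPKM values computed by the authors, used here only for the library totals they imply, which fall into a lower and a higher set. Of 24656 entries, 1288 that repeat a symbol were left out.

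Counts were normalized by TMM and filtered with filterByExpr, and edgeR 4.0.16 (R 4.3.3) quasi-likelihood tests were run within each line for GFOGER against IKVAV, and over all 4 groups for the interaction and for the difference between lines, with Benjamini-Hochberg adjustment over all genes tested. Genes were called at an adjusted p below 0.05, with calls over 2-fold also counted. The tests were checked on simulated counts. Levels are cpm of TMM-adjusted library sizes. Intervals are log2 fold change ± 1.96 SE.

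The 38 genes and the lists were chosen with earlier results of these data known. Values in every library are given for genes over 2-fold in a matrix comparison or the interaction, for the 6 largest increases and all decreases (at most 6) among genes with an adjusted p below 0.05 in MDA-MB-231 cells, for the 4 smallest p in T47D cells, and for ACTB, ACTG1 and VCL; for the lines the 5 largest differences each way, and for related genes the 2 largest each way with a mean of at least 5 cpm, are named. The alternatives used DESeq2 1.42.0, another scaling (upper quartile, or library size alone), another filter (none, or 10 or more counts per library), blocking on replicate number, a term for the RPKM total set, a joint fit of the 4 groups, and 1 library fewer each time. Promoter sequences are from RefSeq (GRCh38.p14).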

Additional observations from a re-analysis of the deposited data

Results flagged for a closer look

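The response to GFOGER against IKVAV differed between MDA-MB-231 and T47D cells for 16 of the 38 genes in edgeR's interaction test at an adjusted p below 0.05. On the log2 scale the response was more positive in MDA-MB-231 cells by 1.35 for LIMA1, 1.29 for FLNC and 1.20 for TPM1. It was more positive by 0.87 for FLNA, 0.75 for MSN, 0.71 for PFN1, 0.64 for TPM3, 0.61 for FERMT2, 0.59 for CNN3 and 0.57 for ACTB. The smallest of these differences were 0.53 for PXN, 0.47 for TPM4, 0.44 for ILK, 0.41 for LASP1 and 0.40 for EZR. The calls of LASP1, MSN, ILK, EZR and PXN were lost in 7, 6, 3, 2 and 1 of 18 alternatives. For CNN2 the response was more negative in MDA-MB-231 cells, with a difference of -0.55. For LIMA1, TPM1 and CNN3 the libraries of the matrices did not overlap in either line and lay in opposite order. None of these genes was called in the T47D comparison (edgeR adjusted p = 0.33, 0.509 and 0.563, in that order). Lack of overlap was frequent among all genes tested for MDA-MB-231, with GFOGER higher for 32.5% and lower for 30.6%. The T47D shares were 8.31% and 7.72%, beside 2 and 3 of the 37 genes of the set tested there. FLNC and MSN had at most 19 and 48 counts in a T47D library.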

How the results depend on the processing

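Values under the alternatives were counted for genes called in the main tests and for ACTB, ACTG1 and VCL. In T47D cells LIMA1, ACTN1, FLNA and TPM1 were counted as well. Direction and side of the threshold were kept by 315 of 338 values in MDA-MB-231 cells and 95 of 98 in T47D cells. They were kept by 301 of 324 for the interaction and 627 of 647 for the lines, and 5 values changed sign. Other genes not called in the main tests were left out of these counts, although some were called under an alternative. In MDA-MB-231 cells these were TAGLN2, MYH9, MYL12A, ZYX, PDLIM5 and RDX. In MDA-MB-231 cells the number of genes called lower (2) was 7 with the replicate number as a block, 1 with the RPKM total set as a term, and 1 to 7 when each library was left out, with 7 without GFOGER replicate 3 and 1 without either IKVAV library. The number over 2-fold was 1 to 3 when each library was left out, with 1 without IKVAV replicate 2. Replicate numbers did not pair the libraries (correlations of deviations -0.0583 to 0.0223), and the block leaves GFOGER replicate 3, which has no IKVAV partner, without weight in the difference. In T47D cells the block moved the calls over all genes from 3 higher and 3 lower to 17 and 21.

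In T47D cells 0 to 1 genes were higher when each library was left out. With the RPKM term, IKVAV replicate 3 alone stood against the T47D GFOGER libraries, because only it shared their lower set of totals. ACTG1 was then at -0.339 on the log2 scale. When each library was left out, ACTB ranged from -0.169 to 0.0252 and VCL from -0.159 to 0.0379 on the log2 scale, above 0 without IKVAV replicate 3, and with the RPKM term they were -0.248 and -0.274. The interaction of ACTG1 was -0.0032 with library size alone and -0.0678 to 0.112 when each library was left out. The interaction count called higher (15) was 12 with the block, 14 with the RPKM term, 16 with no filter and 11 to 16 when each library was left out, the count called lower was 1 to 2, and the median interaction was 0.45 with the RPKM term. The median between the lines was 0.78 with upper-quartile normalization, 0.79 with library size alone and 0.79 with at least 10 counts. In MDA-MB-231 cells the RPKM term leaves IKVAV replicate 1, the only library of that line in the lower set, without weight in the difference. The causes of these shifts were not tested. MDA-MB-231 calls lost under some alternatives were ACTN1, MYH10, LASP1, TLN1, PARVA, MYL12B and TLN2, and interaction calls lost were LASP1, MSN, ILK, EZR and PXN. The alternative with MDA-MB-231 IKVAV replicate 3 was not run. Only 2 IKVAV libraries limit the MDA-MB-231 comparison, and T47D levels of FLNC, MSN and CAV1 rest on few counts.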
